A study of Homo sapiens with 10 samples.

Results

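Hepatic drug, urea and amino acid metabolism was described through 46 genes of the 58302 that the deposited tables list. The 46 were taken by symbol from a given list, and each symbol matched 1 gene. They were grouped here by role into 9 drug-oxidising cytochromes P450, 3 bile acid cytochromes P450, 7 conjugating enzymes, 4 alcohol and aldehyde dehydrogenases, 6 enzymes of the urea cycle and of arginine, 5 of tyrosine and tryptophan breakdown, 2 of glutamine, 4 of gluconeogenesis, and 6 proteins of transport and lipid binding. The values are RNA-Seq levels in 3 human cell lines, all labelled hepatocellular carcinoma, with 10 libraries in all and a single one for each condition. The 5 SK-Hep1 libraries came from cells with a mock control, with overexpressed PSPC1, with PSPC1 and PTK6 (PSPC1/PTK6), with a YF mutant of PSPC1 (PSPC1-YF), and with that mutant and PTK6 (PSPC1-YF/PTK6). The 3 Mahlavu libraries came from a mock control, from cells with the C-terminal part of PSPC1 (PSPC1-CT131), and from cells with a PSPC1 mutated in its nuclear localization sequence (PSPC1 NLS mutation), which the study's methods describe as a mutant of PSPC1-CT131. The 2 Huh-7 libraries came from control cells and from cells given 10 ng/ml of hepatocyte growth factor (HGF) for 48 h. PSPC1 is a paraspeckle RNA-binding protein and PTK6 is a nonreceptor tyrosine kinase. All lines were grown with the same medium and serum, the study's methods mention stable clones from drug selection without tying these libraries to them, and no source used here gives more than 1 culture per condition. Values below are listed in this order of libraries within each line.

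The liver clears drugs in steps. Cytochromes P450 oxidise a compound, transferases join it to glucuronic acid, sulfate or glutathione, and transporters move it out of the cell. Hepatocytes also turn ammonia into urea, take apart tyrosine and tryptophan, make glutamine and glucose, and form bile acids from cholesterol. Tumor cells that lose the hepatocyte state are known to lose many of these functions.

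Reads on genes numbered 15245935 to 24278662 per library. Defining hepatocyte markers were checked first. All 10 of the markers (ALB, AFP, APOA1, APOB, TTR, SERPINA1, TF, FGB, HNF4A and AHSG) reached 1 FPKM (fragments scaled to the length of the gene and to the total of the library) in both Huh-7 libraries, with a summed level of 30231 to 30565 FPKM. In SK-Hep1 and in Mahlavu, 1 of 10 did so in all libraries of the line (SERPINA1), and the summed level was 16.3 to 42.5 FPKM and 8.19 to 10.4 FPKM. ALB, TTR, TF and FGB were at 0 in all 8 of these libraries. Of 10 endothelial markers, 2 reached 1 FPKM in all SK-Hep1 libraries, 1 in all Mahlavu libraries and 2 in both Huh-7 libraries, with summed levels of 67.1 to 173, 17.8 to 31.9 and 49.3 to 54.8 FPKM. KDR and ERG were at 0 in SK-Hep1 and Huh-7. Leukocyte markers summed to at most 0.286 FPKM in SK-Hep1 and 0.174 FPKM in Mahlavu, and to 428 to 442 FPKM in Huh-7, where LYZ gave 427 to 441 FPKM. Of 6 cholangiocyte markers 3, 3 and 4 reached 1 FPKM in all libraries of SK-Hep1, Mahlavu and Huh-7, and of 8 mesenchymal or stellate markers 4 did so in each line. The part of these markers' cell states in the results below was not tested. PSPC1 had 0 reads in SK-Hep1 mock and 71 to 2539 reads in the 4 other SK-Hep1 libraries. PTK6 was at 16.7 and 10.5 FPKM in the SK-Hep1 libraries labelled with PTK6 and at 4.09 to 5.69 FPKM in the other 3. In Mahlavu the level of PSPC1 did not rise with the label, from 47.3 FPKM in mock to 30.8 FPKM (labelled PSPC1-CT131) and 22.5 FPKM (labelled PSPC1 NLS mutation). Reads on the gene as a whole do not separate a part of PSPC1 from the entire gene.

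Most of the 46 members were read in Huh-7 and few in the other lines. At least 1 FPKM in all libraries of the line was reached by 29 members in Huh-7, 11 in Mahlavu and 6 in SK-Hep1. In SK-Hep1 17 members were listed at 0 in all 5 libraries, in Mahlavu 14 were at 0 in all 3, and in Huh-7 1 member, CYP7A1, was at 0 in both. At least 1 FPKM in all 10 libraries was reached by 5 members (ASL, ARG2, FAH, PCK2 and ABCC2). Another 17 reached 1 FPKM in both Huh-7 libraries and stayed under it in the 8 others. These were CYP3A5, CYP3A7, CYP27A1, UGT2B4, UGT2B7, SULT2A1, GSTA1, ADH1B, ALDH2, OTC, ARG1, TAT, HPD, HGD, FBP1, SLCO1B3 and FABP1, and 12 of them had at most 3 reads, or a listed 0, in each SK-Hep1 and Mahlavu library. Another 14 members stayed under 1 FPKM in all 10 libraries, and their highest values are given with their roles. The share of all genes with these patterns was not measured, so the counts describe the list only. Genes above 0 numbered 25838 and 25346 in the Huh-7 libraries, 19497 to 21544 in SK-Hep1 and 20999 to 24052 in Mahlavu. Huh-7 was deposited as FPKM without counts and in a set of its own, so line and set of libraries cannot be told apart.

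**Figure D1:**
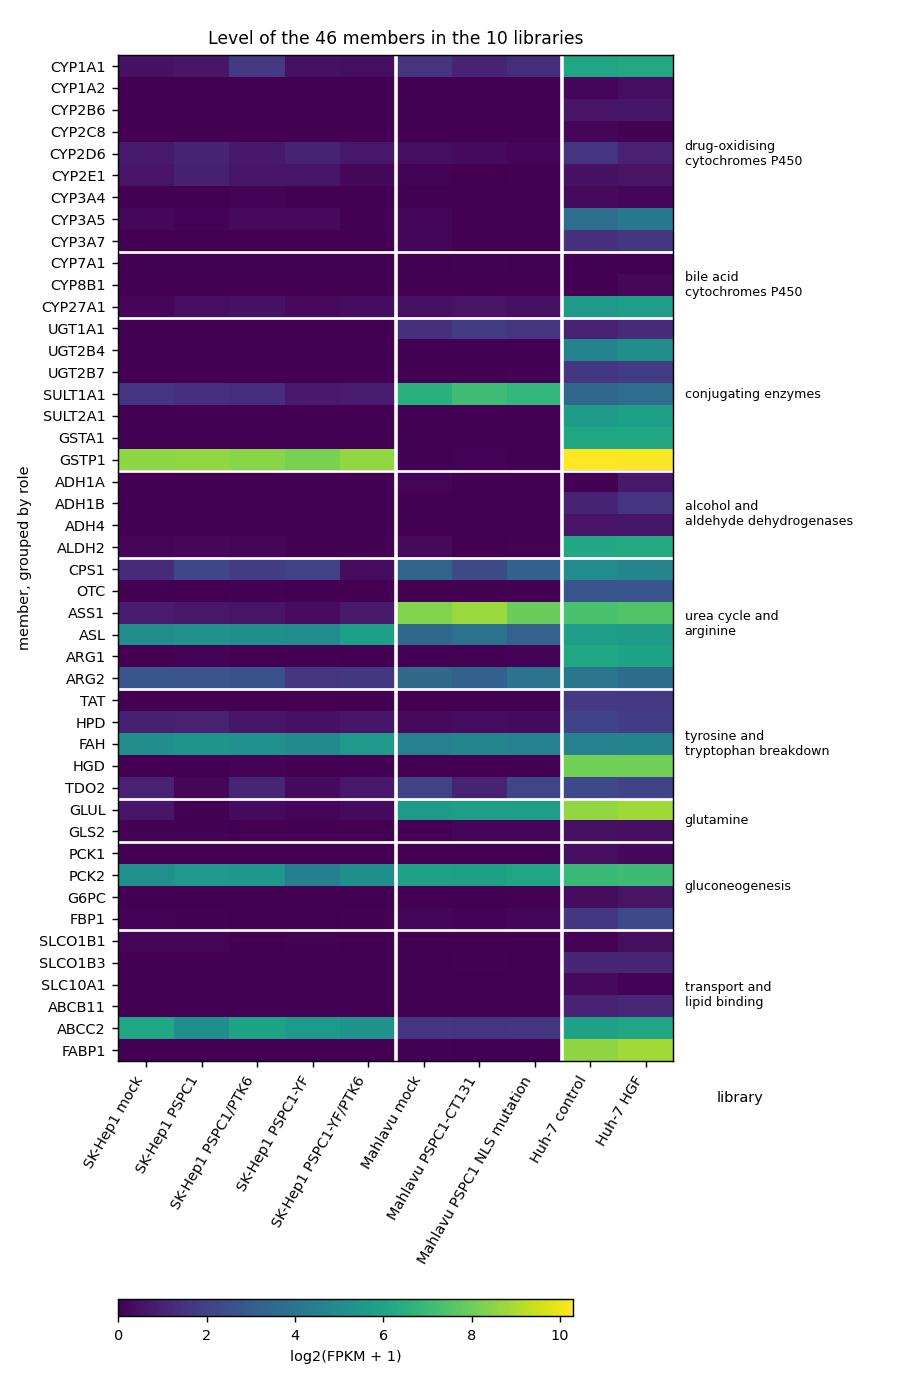
Heat map of log2(FPKM + 1) as deposited for the 46 members (rows, grouped by role) in the 10 libraries (columns, with white lines between cell lines). The 2 Huh-7 columns hold values for most rows, while FABP1, HGD and ALDH2 are near 0 in the 8 other columns and GSTP1 is near 0 in the 3 Mahlavu columns.

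Promoter sequences are shown for 4 members picked from those with large differences between lines. FABP1 and GSTA1 were read in Huh-7 and nearly or wholly at 0 in the 8 others. GSTP1 was nearly at 0 in Mahlavu, and ASS1 was low in SK-Hep1. The 4 are examples and do not stand for all such members. GLUL, not shown, differed more between Huh-7 and SK-Hep1 than GSTA1 (8.45 beside 6.28), and its window held 25 CG pairs and none of the motifs below. Sequences are the 250 bases before the gene's start in RefSeq (GRCh38.p14), 5′ to 3′ on the gene's strand, and this start is not always the one in the deposited tables. In the first pair, capitals mark matches to 3 short motifs, the HNF4 letters CAAAGTC and the C/EBP letters TTGCNNAA on either strand, and the TATA letters TATAAA on the gene's strand. In the second pair, capitals mark each CG.
FABP1, chr2:88128063-88128312, minus strand: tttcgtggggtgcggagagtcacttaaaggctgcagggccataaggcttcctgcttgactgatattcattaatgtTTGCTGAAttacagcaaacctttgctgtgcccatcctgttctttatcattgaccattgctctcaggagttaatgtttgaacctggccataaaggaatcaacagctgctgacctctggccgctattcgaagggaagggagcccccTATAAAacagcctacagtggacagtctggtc
GSTA1, chr6:52803817-52804066, minus strand: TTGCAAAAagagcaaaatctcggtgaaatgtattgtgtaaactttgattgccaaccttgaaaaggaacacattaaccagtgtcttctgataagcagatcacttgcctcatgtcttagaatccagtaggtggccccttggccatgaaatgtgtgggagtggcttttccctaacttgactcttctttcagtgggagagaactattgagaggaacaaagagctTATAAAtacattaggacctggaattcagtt
GSTP1, chr11:67583562-67583811, plus strand: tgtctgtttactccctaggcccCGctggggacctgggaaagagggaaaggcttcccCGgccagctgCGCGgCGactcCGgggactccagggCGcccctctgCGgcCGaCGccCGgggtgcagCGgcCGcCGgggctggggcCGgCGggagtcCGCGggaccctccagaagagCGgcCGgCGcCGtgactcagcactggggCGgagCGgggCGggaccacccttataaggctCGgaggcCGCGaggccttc
ASS1, chr9:130444457-130444706, plus strand: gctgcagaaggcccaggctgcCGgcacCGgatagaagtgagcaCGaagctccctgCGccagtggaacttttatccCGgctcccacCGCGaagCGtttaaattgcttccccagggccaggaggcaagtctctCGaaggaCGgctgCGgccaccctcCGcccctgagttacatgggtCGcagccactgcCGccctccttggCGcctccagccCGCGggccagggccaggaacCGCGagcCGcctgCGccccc

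FABP1 and GSTA1 each held 1 match to the C/EBP letters and 1 to the TATA letters, with TATAAA beginning 31 and 30 bases before the start. GSTP1 and ASS1 held none of the 3 motifs and 28 and 21 CG pairs. The RefSeq table gave a promoter for 37 of the 46 members. TATAAA was found in 13 of the 37 (35.1%) and in 7.17% of all 27305 promoters. TTGCNNAA was found in 8 of the 37 (21.6%) and in 9.13% of all, and CAAAGTC in 3 (8.11%) and in 2.94% of all. Of the 37, 13 were at 1 FPKM or more only in Huh-7, with TATAAA in 5 of these and TTGCNNAA in 4. CYP3A5, CYP27A1, ADH1B, HPD, FBP1 and SLCO1B3 of this group held none of the 3 motifs, and CYP27A1 and FBP1 held 24 and 26 CG pairs. The median number of CG pairs was 3 over the 37 members and 11 over all promoters. It was 2 (0 to 29) over the 13 members at 1 FPKM or more only in Huh-7, and 17 (1 to 27) over the 5 members at 1 FPKM or more in all 10 libraries. ABCC2 was the member of that group with 1 CG pair, and HPD the member of the Huh-7 group with 29. The HPD window (chr12:121888612-121888861, minus strand) does not adjoin the position of HPD in the deposited data, which ends at base 121863596. A match describes the letters in these windows and not a bound factor.

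The 3 lines were compared pairwise, with the libraries of a line standing in for its spread. These libraries are different transfectants or treatments, so p-values measure the spread between conditions and not between repeated cultures. A gene was called at a Benjamini-Hochberg adjusted p under 0.05 and a difference of at least 2-fold, by edgeR's quasi-likelihood test on counts for SK-Hep1 against Mahlavu and by limma on log2(quantile-normalized FPKM + 1) for both Huh-7 comparisons. Differences are on the log2 scale, with the standard error (SE) after the ± sign. Fewer cells with a transcript and less transcript per cell cannot be told apart in such libraries.

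Against SK-Hep1, 31 members passed the filter on low values, and 22 were higher in Huh-7 and 0 lower, where 23.2% of all 16283 genes tested were called higher and 22.7% lower (45.8% in either direction). With FPKM as deposited, without quantile normalization, 27 members were higher and 0 lower, and the shares over all genes were 33.6% higher and 16.7% lower, with the median of all genes moved by 0.39. Against Mahlavu, 22 of 31 members were higher in Huh-7 and 1 lower (SULT1A1), where 20.6% of all genes were called higher and 21.1% lower (41.7% in either direction). The 17 members at 1 FPKM or more only in Huh-7 passed the filter through the Huh-7 libraries alone and had to lie higher there, so these counts describe the list and are no further evidence about it. The median difference of the members was 1.91 against SK-Hep1 and 1.98 against Mahlavu, beside 0.01 and 0.02 over all genes. With no filter it was 0.89 and 0.78 over all 46 members, with a pseudocount of 5 it was 0.97 and 1.35, and with one of 0.1 it was 3.6 and 3.4. Between SK-Hep1 and Mahlavu 17 members passed the filter, and 6 were higher in SK-Hep1 and 6 lower, where 16.6% of all 15229 genes were called higher in SK-Hep1 and 21.0% lower (37.6% in either direction).

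**Figure D2:**
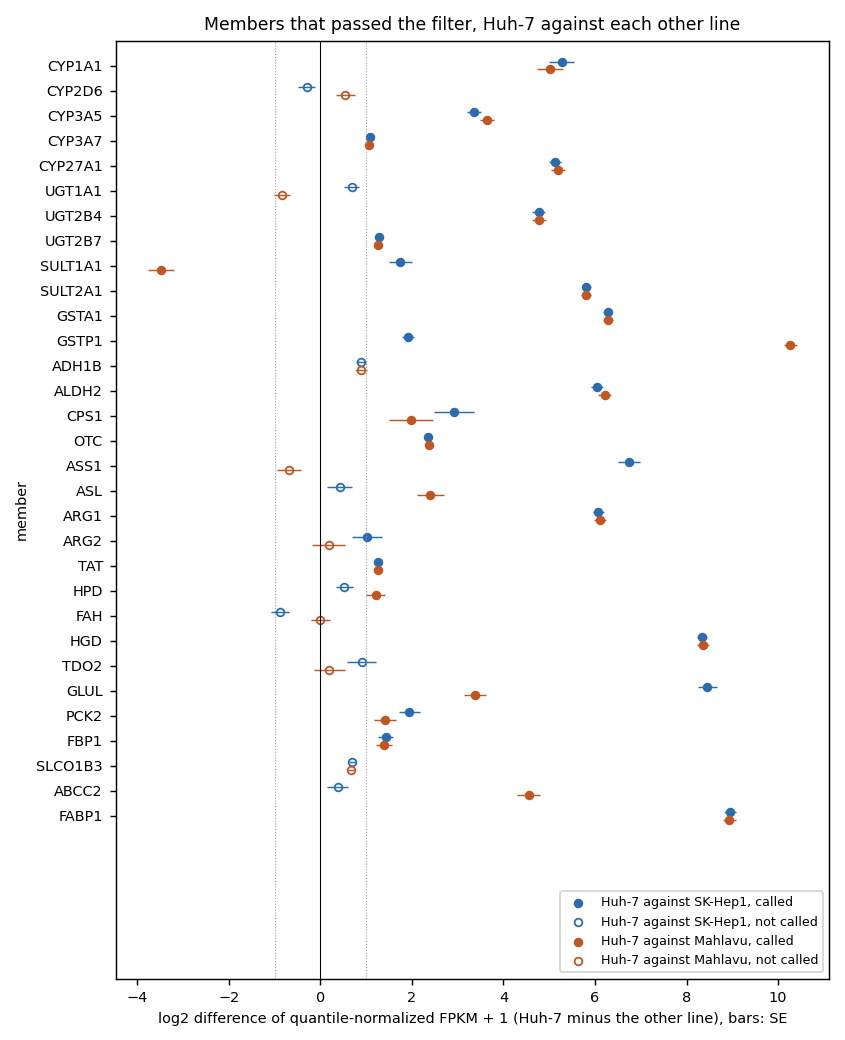
Log2 difference of quantile-normalized FPKM + 1, Huh-7 minus SK-Hep1 (blue) and Huh-7 minus Mahlavu (orange), for the 31 members that passed the filter, with bars for the SE, filled points for called members and open points for members not called. Most points of both colours lie together on the right, and SULT1A1 (1.75 and -3.49), GSTP1 (1.91 and 10.27), ASS1 (6.75 and -0.69) and ABCC2 (0.38 and 4.55) lie apart.

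Among the drug-oxidising cytochromes P450, CYP1A1 was the most abundant in Huh-7. CYP1A1 oxidises aromatic hydrocarbons and is a known target of the aryl hydrocarbon receptor. Its FPKM was 0.400, 0.536, 2.25, 0.386 and 0.313 in SK-Hep1, 2.03, 1.01 and 1.56 in Mahlavu, and 65.7 and 74.3 in Huh-7. Both Huh-7 libraries lay above all 8 others, by 5.27 ± 0.27, adjusted p = 4.965e-08 against SK-Hep1 and 5.02 ± 0.29, adjusted p = 1.766e-07 against Mahlavu, while SK-Hep1 and Mahlavu overlapped. CYP3A5 and CYP3A7 are CYP3A enzymes, the latter the fetal form. CYP3A5 stood at 0.168, 0.0601, 0.204, 0.202 and 0.050 in SK-Hep1, 0.134, 0 and 0 in Mahlavu, and 12 and 16.8 in Huh-7. CYP3A7 stood at 0 in all 5 SK-Hep1 libraries, 0.0930, 0 and 0 in Mahlavu, and 1.63 and 2.17 in Huh-7, and 74.7% of its 100-base stretches also occur in other genes, mainly a read-through transcript of the same locus. Both were called higher in Huh-7, CYP3A5 by 3.35 ± 0.15, adjusted p = 1.831e-08 against SK-Hep1 and 3.64 ± 0.16, adjusted p = 2.365e-08 against Mahlavu. For CYP3A7 the differences were close to 2-fold on this scale (1.08 ± 0.08, adjusted p = 6.362e-07 and 1.05 ± 0.08, adjusted p = 1.921e-06), while its reads were 85 in Huh-7, 0 in SK-Hep1 and 3 in Mahlavu. Without Huh-7 HGF, and with the filter at 1 FPKM in 1 library, both differences of CYP3A7 were under 2-fold (0.90 and 0.88).

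CYP2D6, which oxidises many antidepressants and opioids, was low in every library. Its FPKM was 0.697, 0.956, 0.633, 1.03 and 0.597 in SK-Hep1, 0.293, 0.244 and 0.127 in Mahlavu, and 1.92 and 0.951 in Huh-7. SK-Hep1 lay above Mahlavu without overlap (2.08 ± 0.46, adjusted p = 0.002974), and Huh-7 was not called against either line. With limma on FPKM the difference between SK-Hep1 and Mahlavu was 0.84, under 2-fold and so not called. CYP2D6 was called higher in Huh-7 than in Mahlavu with edgeR on reads (2.55) and with a pseudocount of 0.1 (1.42). Its difference between Huh-7 and SK-Hep1 was -0.30 after quantile normalization and 0.43 with FPKM as deposited, so its direction depends on the scaling. For 13.1% of its 100-base stretches a pseudogene holds the same letters. CYP2E1, the ethanol-inducible P450, stayed under 1 FPKM throughout, with 0.439, 0.883, 0.548, 0.536 and 0.172 in SK-Hep1, 0.0787, 0 and 0.0312 in Mahlavu, and 0.400 and 0.468 in Huh-7. It passed the count filter and was higher in SK-Hep1 than in Mahlavu (3.92 ± 0.78, adjusted p = 0.001722, on 94 and 4 reads). SCART1 overlaps CYP2E1 on the same strand. The other members of the group, CYP1A2, CYP2B6, CYP2C8 and CYP3A4, the main drug-oxidising P450 of adult liver, stayed under 1 FPKM in all libraries. Their highest values were 0.313 FPKM for CYP1A2, 0.541 for CYP2B6, 0.106 for CYP2C8 and 0.214 for CYP3A4, each in a Huh-7 library. CYP3A4 had 8 reads over both Huh-7 libraries, 2 in SK-Hep1 and 0 in Mahlavu.

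Of the bile acid cytochromes P450, CYP27A1 was read in Huh-7 and the other 2 were nearly absent. CYP27A1 is the mitochondrial sterol 27-hydroxylase of the alternative bile acid pathway. Its FPKM was 0.149, 0.287, 0.431, 0.214 and 0.265 in SK-Hep1, 0.369, 0.455 and 0.371 in Mahlavu, and 45 and 53.6 in Huh-7. Huh-7 lay above both lines by 5.13 ± 0.14, adjusted p = 4.862e-10 and 5.20 ± 0.15, adjusted p = 1.091e-09. SK-Hep1 and Mahlavu overlapped and were not called apart (-0.30 ± 0.44, adjusted p = 0.5887). CYP7A1, the rate-limiting enzyme of the classic pathway, had 0 reads in Huh-7 and SK-Hep1 and 2 in Mahlavu. CYP8B1, the sterol 12-alpha-hydroxylase, had 7 reads, all in Huh-7 HGF, beside 1 in SK-Hep1 and 0 in Mahlavu. In Huh-7, 3 reads of CYP7A1 would have given 0.0621 and 0.0667 FPKM, the limit that a count of 0 allows for counting error.

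Of the 7 conjugating enzymes, GSTP1 and SULT1A1 were called in all 3 comparisons of lines. GSTP1, the pi-class glutathione transferase (chr11:67583595-67586660), is known as the form of fetal and bile duct rather than adult hepatocyte cells. Its FPKM was 369, 394, 349, 301 and 397 in SK-Hep1, 0.0556, 0.0637 and 0 in Mahlavu, and 1259 and 1207 in Huh-7. Mahlavu stood at the floor with 2 reads over its 3 libraries, beside 31946 in SK-Hep1 and 30939 in Huh-7, and no ranges overlapped. SK-Hep1 was above Mahlavu by 13.14 ± 0.43, adjusted p = 1.802e-08, and the depth-scaled ratio of reads was 8849 (2449.5 to 73075), where the interval is the exact 95% one and covers counting error only. Huh-7 was above SK-Hep1 by 1.91 ± 0.13, adjusted p = 6.33e-07 and above Mahlavu by 10.27 ± 0.15, adjusted p = 1.481e-11. GSTA1, the alpha-class form typical of hepatocytes, was listed at 0 in all SK-Hep1 and Mahlavu libraries and at 72.3 and 69.6 FPKM in Huh-7. For 12% of its 100-base stretches GSTA2 holds the same letters.

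SULT1A1, which adds sulfate to phenols, had the opposite order of GSTP1 between SK-Hep1 and Mahlavu. Its FPKM was 1.92, 1.61, 1.51, 0.689 and 0.764 in SK-Hep1, 91.6, 137 and 111 in Mahlavu, and 9.45 and 11.7 in Huh-7. All 3 Mahlavu libraries lay above Huh-7, and both Huh-7 libraries above SK-Hep1, with no overlap. SK-Hep1 minus Mahlavu was -6.20 ± 0.35, adjusted p = 2.575e-07, Huh-7 minus Mahlavu was -3.49 ± 0.28, adjusted p = 2.245e-06, and Huh-7 was above SK-Hep1 by 1.75 ± 0.26, adjusted p = 0.0001552. For 8.47% of its 100-base stretches other SULT1A genes hold the same letters. SULT2A1, the sulfotransferase of steroids and bile acids, was listed at 0 in the 8 SK-Hep1 and Mahlavu libraries and at 51.1 and 55.8 FPKM in Huh-7.

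The UDP-glucuronosyltransferases were at 0 in SK-Hep1. UGT1A1, which conjugates bilirubin, stood at 0 in all 5 SK-Hep1 libraries, 1.76, 2.59 and 1.89 in Mahlavu, and 0.910 and 1.39 in Huh-7. It had 367 reads in Mahlavu, so the level in SK-Hep1 was at most 0.00453 times that in Mahlavu against a floor of 3 reads over the group (adjusted p = 3.339e-05). Huh-7 lay between them and was not called against either line (0.69 ± 0.16, adjusted p = 0.003637 and -0.84 ± 0.18, adjusted p = 0.002072), since neither difference reached 2-fold on this scale. A share of 33.2% of the 100-base stretches of UGT1A1 also belong to other UGT1A genes, which share its last exons. UGT1A10 of that locus was at 37.0, 45 and 46.7 FPKM in Mahlavu, at 0.0212 FPKM or less in SK-Hep1 and at 0.164 and 0.205 FPKM in Huh-7, so how many of the UGT1A1 reads in Mahlavu belong to UGT1A1 was not tested. UGT2B4 was listed at 0 in the 8 SK-Hep1 and Mahlavu libraries and at 23.8 and 34.0 FPKM in Huh-7. UGT2B7 stood at 0 in all 5 SK-Hep1 libraries, 0, 0 and 0.0393 in Mahlavu, and 2.20 and 2.46 in Huh-7. Both UGT2B enzymes conjugate steroids, bile acids and drugs, and both were called higher in Huh-7, UGT2B4 by 4.77 ± 0.14 and UGT2B7 by 1.28 ± 0.06 against SK-Hep1.

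**Figure D3:**
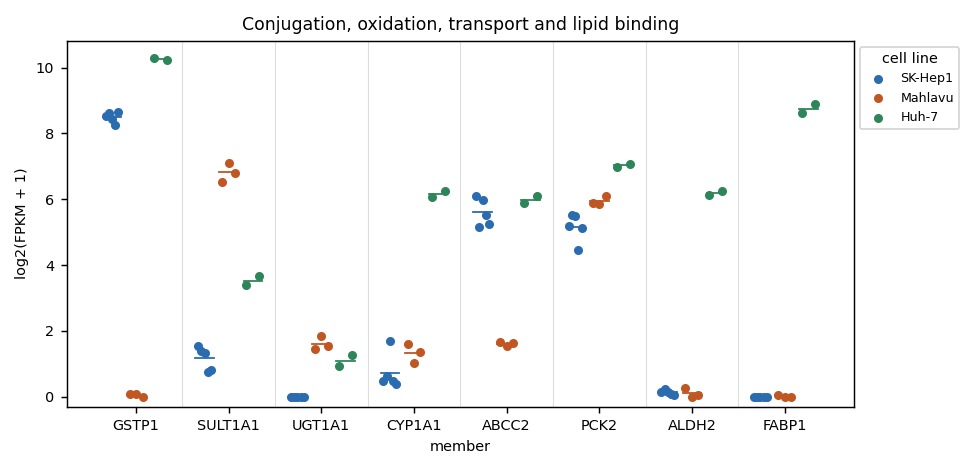
Log2(FPKM + 1) as deposited for 8 members of conjugation, oxidation, transport, gluconeogenesis and lipid binding, with 1 point per library and a short bar for the mean of the log2 values of the line (SK-Hep1 blue, Mahlavu orange, Huh-7 green). GSTP1 and ABCC2 are low in Mahlavu, SULT1A1 is highest in Mahlavu, and ALDH2 and FABP1 are near 0 outside Huh-7.

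Of the alcohol and aldehyde dehydrogenases, ALDH2 was abundant in Huh-7. ALDH2 is the mitochondrial enzyme that clears acetaldehyde. Its FPKM was 0.0985, 0.176, 0.104, 0.0506 and 0.0440 in SK-Hep1, 0.188, 0 and 0.0373 in Mahlavu, and 69.0 and 75 in Huh-7. Huh-7 was above SK-Hep1 by 6.04 ± 0.13, adjusted p = 7.412e-11 and above Mahlavu by 6.21 ± 0.14, adjusted p = 1.462e-10, with 6387 reads beside 29 and 14. ADH1B, a class I alcohol dehydrogenase, was listed at 0 in the 8 other libraries and at 1.04 and 2.04 FPKM in Huh-7, and its difference of 0.89 ± 0.11 did not reach 2-fold on this scale. ADH1A and ADH4, also alcohol dehydrogenases, peaked at 0.634 and 0.551 FPKM in Huh-7 HGF.

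The urea cycle was read as a full set of enzymes only in Huh-7, where all 6 members of the group were above 1 FPKM, beside 4 in Mahlavu and 2 in SK-Hep1. CPS1, which starts the cycle by making carbamoyl phosphate in mitochondria, stood at 1.43, 3.61, 2.65, 2.98 and 0.282 in SK-Hep1, 8.96, 4.10 and 8.10 in Mahlavu, and 30.6 and 25.9 in Huh-7. The lines did not overlap, and Huh-7 was above SK-Hep1 by 2.92 ± 0.44, adjusted p = 0.0001973 and above Mahlavu by 1.98 ± 0.48, adjusted p = 0.004883. Without Huh-7 control, and with the filter at 1 FPKM in 1 library, the difference from Mahlavu was 1.87. That fit holds 1 Huh-7 library, so the value is an effect size only and no sign that the call held. SK-Hep1 against Mahlavu was not called for CPS1 (-1.40 ± 0.56, adjusted p = 0.05505). It was called without SK-Hep1 PSPC1 (-1.68, adjusted p = 0.03577) or without SK-Hep1 PSPC1-YF/PTK6 (-1.12, adjusted p = 0.02769), and its value in the latter library was the lowest of the 10. OTC, which joins carbamoyl phosphate to ornithine, stood at 0, 0, 0.0379, 0 and 0 in SK-Hep1, 0 in all 3 Mahlavu libraries, and 5.69 and 5.81 in Huh-7, with nearly all reads in Huh-7 (201 reads, beside 1 in SK-Hep1 and 0 in Mahlavu).

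ASS1, which makes argininosuccinate from citrulline and aspartate (chr9:130444929-130501274), was nearly unread in SK-Hep1. Its FPKM was 0.779, 0.574, 0.486, 0.250 and 0.696 in SK-Hep1, 325, 427 and 249 in Mahlavu, and 162 and 179.7 in Huh-7. The highest SK-Hep1 value lay far below the lowest value of the other lines, with 59 reads over 5 libraries beside 19485 over the 3 of Mahlavu. SK-Hep1 minus Mahlavu was -8.94 ± 0.35, adjusted p = 2.983e-08, with a ratio of reads of 0.00168 (0.00128 to 0.00216), and Huh-7 was above SK-Hep1 by 6.75 ± 0.24, adjusted p = 3.078e-09. Between Huh-7 and Mahlavu the ranges did not overlap, and the difference of -0.69 ± 0.26, adjusted p = 0.03894 did not reach 2-fold. With edgeR on reads it did (-1.11, adjusted p = 0.01099).

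ASL, which splits argininosuccinate into arginine and fumarate, went the other way. Its FPKM was 33.4, 35.6, 34.3, 30.3 and 54.7 in SK-Hep1, 10.0, 13.7 and 8.36 in Mahlavu, and 53.2 and 50.2 in Huh-7. SK-Hep1 and Huh-7 overlapped and both lay above Mahlavu, SK-Hep1 by 2.09 ± 0.31, adjusted p = 0.000218 and Huh-7 by 2.40 ± 0.30, adjusted p = 6.09e-05. For 22.7% of its 100-base stretches an overlapping gene on the same strand holds the same letters. SK-Hep1 thus held ASL without much ASS1, and Mahlavu held both.

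Of the arginases, the liver form was read in Huh-7 and the mitochondrial form in all lines. ARG1, the cytosolic liver arginase that releases urea, stood at 0, 0.0576, 0, 0.0552 and 0 in SK-Hep1, 0, 0 and 0.0610 in Mahlavu, and 70.2 and 61.6 in Huh-7. It had 1795 reads in Huh-7, 2 in SK-Hep1 and 1 in Mahlavu, and Huh-7 was higher by 6.07 ± 0.12 and 6.11 ± 0.13. ARG2, the mitochondrial arginase of many tissues, stood at 5.82, 5.49, 5.07, 1.91 and 2.20 in SK-Hep1, 10.9, 8.10 and 14.3 in Mahlavu, and 15.5 and 11.5 in Huh-7. SK-Hep1 lay below Mahlavu without overlap (-1.17 ± 0.39, adjusted p = 0.02515), and Huh-7 lay above SK-Hep1 (1.02 ± 0.33, adjusted p = 0.0182), while Mahlavu and Huh-7 overlapped. Both calls on ARG2 ended without SK-Hep1 PSPC1-YF (-0.99 against Mahlavu and 0.87 for Huh-7 against SK-Hep1) and without SK-Hep1 PSPC1-YF/PTK6 (0.91 for Huh-7 against SK-Hep1, and adjusted p = 0.05014 against Mahlavu). The call against Mahlavu also ended without Mahlavu PSPC1 NLS mutation (-0.93, adjusted p = 0.1142), and that of Huh-7 without Huh-7 control (0.80, adjusted p = 0.1468). MED23 overlaps ARG1 and VTI1B overlaps ARG2 on the other strand, and the library kit does not mark strand.

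**Figure D4:**
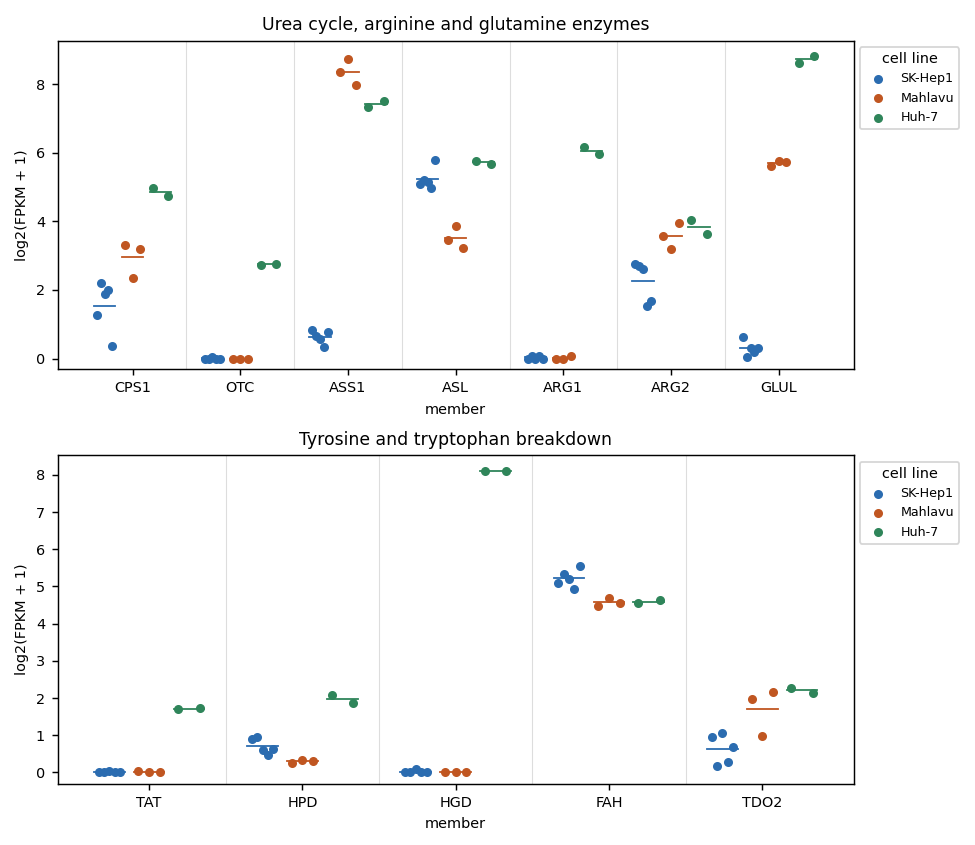
Log2(FPKM + 1) as deposited for the urea cycle, arginine and glutamine enzymes (top) and for tyrosine and tryptophan breakdown (bottom), with 1 point per library and a short bar for the mean of the log2 values of the line (SK-Hep1 blue, Mahlavu orange, Huh-7 green). ASS1 and GLUL are near the bottom in SK-Hep1 alone, OTC, ARG1, TAT and HGD are near 0 outside Huh-7, and FAH is within 2-fold between the means of all lines.

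Tyrosine breakdown runs from TAT through HPD and HGD to FAH, and the last enzyme was the one read in every line. TAT, the aminotransferase that starts the pathway, stood at 0, 0, 0.0230, 0 and 0 in SK-Hep1, 0.0242, 0 and 0 in Mahlavu, and 2.25 and 2.31 in Huh-7. HPD, which makes homogentisate, stood at 0.863, 0.925, 0.522, 0.380 and 0.550 in SK-Hep1, 0.196, 0.270 and 0.233 in Mahlavu, and 3.21 and 2.63 in Huh-7. Both TAT (1.25 ± 0.06 against SK-Hep1) and, against Mahlavu alone, HPD (1.20 ± 0.20, adjusted p = 0.0004586) were called higher in Huh-7. Against SK-Hep1, HPD differed by 0.52 ± 0.18, and it was called there with FPKM as deposited (1.26), FPKM scaled to the same sum (1.29) and edgeR on reads (1.78, adjusted p = 0.004126). HPD was called higher in SK-Hep1 than in Mahlavu (1.73 ± 0.50, adjusted p = 0.01315), and without Mahlavu mock that call ended (1.56, adjusted p = 0.06008). HGD, which opens the ring of homogentisate (chr3:120628173-120682571), stood at 0, 0, 0.0592, 0 and 0 in SK-Hep1, 0 in all 3 Mahlavu libraries, and 274 and 277 in Huh-7. All its reads but 1 came from Huh-7 (6151 reads), a difference of 8.33 ± 0.12, adjusted p = 7.434e-12 against SK-Hep1 and 8.36 ± 0.13, adjusted p = 1.658e-11 against Mahlavu. FAH, which splits fumarylacetoacetate, stood at 33.0, 39.3, 36.0, 29.3 and 45.4 in SK-Hep1, 21.1, 25 and 22.6 in Mahlavu, and 22.4 and 23.7 in Huh-7. SK-Hep1 was highest without overlap, by 0.95 ± 0.22, adjusted p = 0.004409 over Mahlavu and with Huh-7 lower by 0.89 ± 0.19, both under 2-fold and so not called. Without SK-Hep1 PSPC1-YF or without Mahlavu PSPC1-CT131 the former was called (1.02 and 1.17).

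TDO2, the liver enzyme that opens the ring of tryptophan, stood at 0.930, 0.136, 1.07, 0.217 and 0.604 in SK-Hep1, 2.95, 0.972 and 3.46 in Mahlavu, and 3.86 and 3.37 in Huh-7. SK-Hep1 was below Mahlavu (-1.76 ± 0.60, adjusted p = 0.02931) although the library labelled PSPC1-CT131 fell inside the SK-Hep1 range. That call ended without SK-Hep1 PSPC1-YF (adjusted p = 0.0538), without Mahlavu mock (adjusted p = 0.08423) and without Mahlavu PSPC1 NLS mutation (adjusted p = 0.1284). Huh-7 lay above SK-Hep1 without overlap, by 0.90 ± 0.31, adjusted p = 0.02604, under 2-fold and so not called, and overlapped Mahlavu. It was called without SK-Hep1 mock (1.02), with FPKM as deposited (1.57) or scaled to the same sum (1.60), with a pseudocount of 0.1 (1.55) and with edgeR on reads (2.24, adjusted p = 0.01008).

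GLUL, the glutamine synthetase of hepatocytes around the central vein (chr1:182381704-182392206), ordered the lines as Huh-7, Mahlavu and SK-Hep1. Its FPKM was 0.545, 0.0403, 0.239, 0.135 and 0.235 in SK-Hep1, 48.2, 52.8 and 52.2 in Mahlavu, and 395 and 453 in Huh-7. No ranges overlapped, and SK-Hep1 minus Mahlavu was -7.46 ± 0.47, adjusted p = 5.891e-07. Huh-7 was above SK-Hep1 by 8.45 ± 0.21, adjusted p = 2.522e-10, and above Mahlavu by 3.38 ± 0.23, adjusted p = 6.787e-07. SK-Hep1 had 66 reads of GLUL and 59 of ASS1 over its 5 libraries, 2 members that Mahlavu kept at 48.2 FPKM or more in each library. GLS2, the liver-type glutaminase, stayed at 0.370 FPKM or less.

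In gluconeogenesis the mitochondrial form of phosphoenolpyruvate carboxykinase was read in all lines and the liver-specific enzymes were not. PCK2, that mitochondrial form, stood at 35.4, 44.9, 44.3, 20.9 and 34.0 in SK-Hep1, 57.9, 56.2 and 67.1 in Mahlavu, and 126 and 133 in Huh-7. Huh-7 lay above both lines, by 1.94 ± 0.23, adjusted p = 2.962e-05 and 1.41 ± 0.25, adjusted p = 0.0006395 (0.98 against Mahlavu with edgeR on reads, under 2-fold), and Mahlavu above SK-Hep1 by less than 2-fold (-0.48 ± 0.23, adjusted p = 0.1026, SK-Hep1 minus Mahlavu). PCK1, the cytosolic form, was listed at 0 outside Huh-7 and at 0.300 and 0.161 FPKM in it. G6PC, the phosphatase that releases glucose, was likewise at 0 outside Huh-7 and at 0.253 and 0.454 FPKM in it. FBP1, the fructose bisphosphatase, stood at 0.0773, 0.0415, 0, 0 and 0.0345 in SK-Hep1, 0.148, 0.0847 and 0.0878 in Mahlavu, and 2.10 and 4.01 in Huh-7. It was called higher in Huh-7 (1.42 ± 0.16 and 1.39 ± 0.17). Without Huh-7 HGF, and with the filter at 1 FPKM in 1 library, the latter was just under 2-fold (1.00 on the log2 scale, rounded).

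Of the transport proteins, ABCC2 and FABP1 were abundant and the uptake carriers were not. ABCC2, the canalicular exporter of conjugated bilirubin (MRP2), stood at 67.5, 34.3, 61.8, 44.9 and 37.3 in SK-Hep1, 2.14, 1.91 and 2.08 in Mahlavu, and 58.1 and 66.8 in Huh-7. SK-Hep1 and Huh-7 overlapped and lay above Mahlavu, by 4.85 ± 0.28, adjusted p = 2.992e-07 and 4.55 ± 0.25, adjusted p = 1.188e-07. FABP1, the liver fatty acid binding protein (chr2:88122982-88128116), stood at 0 in all 5 SK-Hep1 libraries, 0.0351, 0 and 0 in Mahlavu, and 389 and 474 in Huh-7. It had 17057 reads in Huh-7, 0 in SK-Hep1 and 1 in Mahlavu, and Huh-7 was at least 19985-fold higher than SK-Hep1 against a floor of 3 reads over the group. ABCB11, the bile salt export pump, stood at 0 in all 5 SK-Hep1 libraries, 0.0162, 0 and 0 in Mahlavu, and 0.942 and 1.25 in Huh-7, and did not pass the filter of 1 FPKM in 2 libraries. SLCO1B3, an organic anion uptake carrier, stood at 0 in all 5 SK-Hep1 libraries, 0, 0.0288 and 0 in Mahlavu, and 1.15 and 1.16 in Huh-7, with differences under 2-fold on this scale (0.69 ± 0.06 and 0.67 ± 0.06), and 66.8% of its 100-base stretches also occur in an overlapping gene. SLCO1B1, the related carrier, and SLC10A1, the bile acid uptake carrier NTCP, reached at most 0.294 and 0.209 FPKM.

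Other genes of the same pathways were described from lists that hold none of the 46 members. Over all genes tested in Huh-7 against SK-Hep1, 23.2% were called higher in Huh-7 and 22.7% lower. Among 35 further genes of drug oxidation, 27 were tested in Huh-7 against SK-Hep1, and 14 were higher and 3 lower in Huh-7. The largest differences were in AKR1C1, an aldo-keto reductase (8.18), and MAOB, a monoamine oxidase (7.11), and on the lower side in AOX1, an aldehyde oxidase (-2.03), and CES2, a carboxylesterase (-1.69). Of 37 genes of conjugation 25 were tested, with 13 higher (MGST2, 6.78, and GSTM3, 5.06, both glutathione transferases) and 4 lower (NNMT, the nicotinamide methyltransferase, -6.40, and SULT2B1, a sterol sulfotransferase, -3.84). Of 23 alcohol and aldehyde genes 20 were tested, with 11 higher (ALDH1A1, 10.43, and ADH6, 4.51) and 5 lower (ALDH1A3, -4.17, and ACSS1, -2.67). In all 3 lists genes were called in both directions, and 5, 6 and 3 of the genes tested had passed the filter through Huh-7 alone and had to lie higher there.

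The urea and amino acid list had the most one-sided count of the 6 pathway lists. Of 57 genes 51 were tested, with 31 higher in Huh-7 than in SK-Hep1 and 2 lower. PSAT1, of serine synthesis (7.62), was among the largest differences, and GNMT, the glycine methyltransferase (-1.14), and GSTZ1, of tyrosine breakdown (-1.09), were lower. In gluconeogenesis 9 of 11 genes were tested, with 6 higher (GCKR, the glucokinase regulator, 4.31, and PPARGC1A, a coactivator, 2.77) and 1 lower (G6PC3, -2.27). In bile acid synthesis and transport 26 of 32 were tested, with 19 higher (SLC22A9, 5.71, and SLCO2B1, 4.93, both organic anion carriers) and 3 lower (SLC27A5, of bile acid conjugation, -3.58, and ABCC1, an exporter, -3.01). Over all genes tested, 23.2% were higher and 22.7% lower. Of the genes tested in these 3 lists, in the same order, 10, 3 and 10 passed the filter through Huh-7 alone. Such genes had to lie higher in Huh-7, so the counts describe the lists and are no further evidence about them.

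Between SK-Hep1 and Mahlavu the drug oxidation list was lower in SK-Hep1 for 16 of 24 genes tested and higher for 3, with a median difference of -2.88 beside -0.06 over all genes. The counts higher and lower in SK-Hep1 were 6 and 6 of 19 for conjugation, 2 and 5 of 17 for alcohol and aldehyde, 7 and 13 of 40 for urea and amino acids, 0 and 1 of 6 for gluconeogenesis and 4 and 8 of 17 for bile acids and transport. Over all genes tested, 16.6% were higher in SK-Hep1 and 21.0% lower. In Huh-7 against Mahlavu the counts higher and lower in Huh-7 were 12 and 9 of 27 for drug oxidation, 12 and 5 of 25 for conjugation, 10 and 4 of 20 for alcohol and aldehyde, 27 and 3 of 51 for urea and amino acids, 6 and 1 of 9 for gluconeogenesis, and 18 and 4 of 26 for bile acids and transport. Over all genes tested, 20.6% were higher in Huh-7 and 21.1% lower. Genes that passed the filter through Huh-7 alone had to lie higher in this comparison as well.

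Most regulators of the members were higher in Huh-7 as well. Of 28 regulators all were tested, and 23 were higher and 2 lower in Huh-7 than in SK-Hep1, and 20 higher and 2 lower than in Mahlavu, beside 23.2% higher and 22.7% lower and 20.6% higher and 21.1% lower over all genes. Of the 28, 12 were under 1 FPKM in all SK-Hep1 and Mahlavu libraries and passed the filter through Huh-7 alone. These, HNF4A and NR1H4 among them, had to lie higher there, so the counts describe the list and are no further evidence about it. HNF4A, the nuclear receptor that maintains hepatocyte genes, ranged over 0 to 0.0820 in SK-Hep1, 0.0173 to 0.0205 in Mahlavu and 109 to 114 in Huh-7. FOXA3, a pioneer factor, differed by 6.18 between Huh-7 and SK-Hep1. NR1H4, the bile acid receptor FXR, was at 0 in the 8 SK-Hep1 and Mahlavu libraries and at 47.8 and 50.9 FPKM in Huh-7. The 2 lower regulators were AHRR, the repressor of the aryl hydrocarbon receptor, and CEBPB. AHRR ranged over 19.8 to 29.6 in SK-Hep1, 2.20 to 16 in Mahlavu and 0.805 to 0.947 in Huh-7, the reverse order of CYP1A1 between Huh-7 and the other lines. A link between AHRR and CYP1A1 was not tested. CEBPB ranged over 80.8 to 224 in SK-Hep1, 100.4 to 169 in Mahlavu and 30.0 to 32.1 in Huh-7.

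Within a line each condition had 1 library, so differences have no replicate check and no test. Members that averaged 1 FPKM or more in the pair of libraries were compared with mock or control on the scale of quantile-normalized FPKM + 1, and 1 member passed 2-fold in the 7 contrasts. In the contrasts of PSPC1, PSPC1/PTK6 and PSPC1-YF/PTK6 with SK-Hep1 mock, 0 of 8, 0 of 10 and 0 of 7 members passed, where 5.48%, 8.47% and 4.84% of all genes did. In PSPC1-CT131 and PSPC1 NLS mutation against Mahlavu mock 0 of 12 members passed in each, where 6.2% and 6.32% of all genes did. In Huh-7 HGF against control 0 of 32 passed, where 0.834% of all genes did. In PSPC1-YF against SK-Hep1 mock 1 of 8 passed, ARG2, where 5.04% of all genes did and 2.32% passed it downward. ARG2 was at -1.13 on the log2 scale (40 against 125 reads, ratio 0.329, 0.224 to 0.473).

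**Figure D5:**
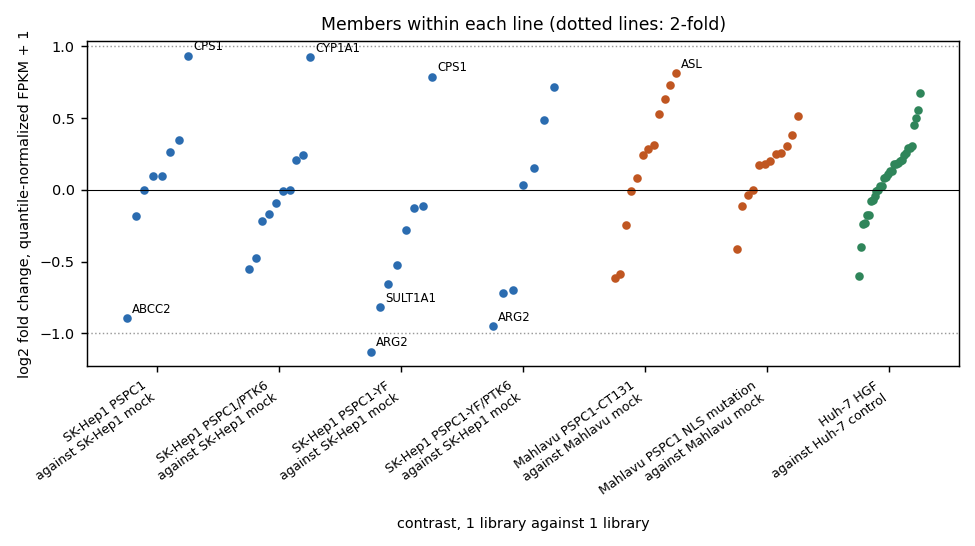
Log2 fold change of quantile-normalized FPKM + 1 for the members with a mean of at least 1 FPKM, in the 7 contrasts of 1 library against the mock or control library of its line (SK-Hep1 blue, Mahlavu orange, Huh-7 green). All points but ARG2 in PSPC1-YF lie between the dotted lines at 2-fold, with CPS1 and CYP1A1 closest to the upper line.

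Adding 1 to FPKM shrinks the differences of low members, so depth-scaled ratios of reads are given with exact counting intervals, for members chosen after the values were seen. These ratios are also not quantile normalized, so they depend on the scaling. ABCC2 in PSPC1-CT131, for example, was at 0.245 on the log2 scale above and had a ratio of 0.892 (0.675 to 1.18). CYP1A1 was higher in the library labelled PSPC1/PTK6 (99 against 16 reads, ratio 5.62, 3.29 to 10.2) and was within counting error of mock in the other 3 transfectants. CPS1 was higher than mock in PSPC1 (160 against 68 reads, ratio 2.52, 1.89 to 3.40), in PSPC1/PTK6 (139 against 68 reads, ratio 1.86, 1.38 to 2.52) and in PSPC1-YF (138 against 68 reads, ratio 2.09, 1.55 to 2.83), and lower in PSPC1-YF/PTK6 (15 against 68 reads, ratio 0.197, 0.105 to 0.348). GLUL, already low in SK-Hep1, was lower than mock in all 4 transfectants, most in PSPC1 (2 against 29 reads, ratio 0.0739, 0.00855 to 0.292) and least in PSPC1/PTK6 (14 against 29 reads, ratio 0.438, 0.214 to 0.856). All 4 ratios share 1 mock library, so they are not 4 separate results. TDO2 was lower in PSPC1 (3 against 22 reads, ratio 0.146, 0.0280 to 0.487) and in PSPC1-YF (5 against 22 reads, ratio 0.234, 0.0691 to 0.632).

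ABCC2 was lower than mock in all 4 transfectants, in PSPC1 (1747 against 3681 reads, ratio 0.509, 0.480 to 0.539), PSPC1-YF/PTK6 (2281 against 3681 reads, ratio 0.553, 0.525 to 0.583), PSPC1-YF (2383 against 3681 reads, ratio 0.665, 0.632 to 0.701) and least in PSPC1/PTK6 (3717 against 3681 reads, ratio 0.917, 0.876 to 0.960). The mock library is again the same in all 4 ratios. SULT1A1 was lower than mock in PSPC1-YF (29 against 83 reads, ratio 0.359, 0.227 to 0.554) and PSPC1-YF/PTK6 (37 against 83 reads, ratio 0.398, 0.263 to 0.593), and ARG2 was lower in PSPC1-YF/PTK6 as well (53 against 125 reads, ratio 0.379, 0.269 to 0.526). Both libraries labelled PSPC1-YF lay below the other 3 SK-Hep1 libraries for 4 of the 11 members that reached 1 FPKM in this line (CYP1A1, SULT1A1, ARG2 and PCK2) and above them for 0. CYP1A1 was within counting error of mock in both (15 and 14 against 16 reads) and reached 1 FPKM in PSPC1/PTK6 alone. Over all 13270 genes at that level, 19.1% lay below and 6.11% above. A split of 2 against 3 libraries cannot give a two-sided exact p under 0.2.

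In Mahlavu no member passed 2-fold on the scale above. TDO2 was lower in the library labelled PSPC1-CT131 (21 against 73 reads, ratio 0.330, 0.193 to 0.542) and CPS1 as well (178 against 446 reads, ratio 0.457, 0.382 to 0.545), while neither was below mock beyond counting error in the library labelled PSPC1 NLS mutation. CYP1A1 was lower in PSPC1-CT131 (37 against 85 reads, ratio 0.499, 0.329 to 0.742), with 55 against 85 reads, ratio 0.769, 0.538 to 1.09 in PSPC1 NLS mutation. SULT1A1 was higher in PSPC1-CT131 (5410 against 4147 reads, ratio 1.49, 1.43 to 1.56) and in PSPC1 NLS mutation (4213 against 4147 reads, ratio 1.21, 1.16 to 1.26), and ASS1 was higher in PSPC1-CT131 (8007 against 6980 reads, ratio 1.31, 1.27 to 1.36) and lower in PSPC1 NLS mutation (4498 against 6980 reads, ratio 0.766, 0.738 to 0.795). In Huh-7, of the members with recovered reads, the largest ratios after HGF among those compared were those of FBP1 (73 against 41 reads, ratio 1.91, 1.29 to 2.88) and, downward, CYP2D6 (24 against 52 reads, ratio 0.496, 0.292 to 0.819). ADH1A, which stayed under 1 FPKM, had 11 against 1 reads, ratio 11.8, 1.72 to 509 after HGF. Of the urea cycle after HGF, CPS1 (867 against 1100 reads, ratio 0.847, 0.774 to 0.926) and ARG1 (807 against 988 reads, ratio 0.877, 0.798 to 0.964) moved by less than 2-fold. Such intervals cover counting error alone, and the spread between cultures was not measured in any line.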

How the data were processed

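RNA-Seq was measured in 10 libraries, 1 per condition. Per the labels, RNA was selected on poly-T beads, while the study's methods name rRNA depletion. The submitters' processing notes name TopHat2 2.0, HTSeq 0.6.1, edgeR and GRCh38.p12; the study's methods name hg18, and 97.5% of gene positions in the tables were those of GENCODE 29. The authors deposited raw counts and FPKM per gene for SK-Hep1 and Mahlavu, and FPKM only for Huh-7. Deposited FPKM were not quantile normalized. Each FPKM followed from the count, the library total and 1 length per gene for 100.0% of values (tolerance 0.01 reads), and this length gave whole reads for Huh-7. Of the 46 members, 9 had no read outside Huh-7 and so no length, and their values are FPKM only. Up to 8 lines of a table, which held overflowing annotation text and no gene, were left out.

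Counts of SK-Hep1 and Mahlavu were tested with edgeR 4.0.16 (TMM, filterByExpr, quasi-likelihood). FPKM of all 10 libraries were quantile normalized, log2-transformed after adding 1, kept at 1 FPKM or more in 2 libraries, and tested with limma 3.58.1 (trend) with the cell line as the factor. Adjustment was by Benjamini-Hochberg over all genes. Within a line, quantile-normalized FPKM + 1 of 2 libraries were compared with no test. Alternatives were DESeq2 1.42.0, other scalings, pseudocounts (0.1 and 5) and filters, and leaving out each library. Scripts were tested on simulated data. Positions are those of the tables on GRCh38. Shared 100-base stretches came from GENCODE 29 transcripts.

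Every member is accounted for, with values in each library for those at 1 FPKM or more in any. Members and lists were chosen with earlier results of these data known. Of each list of other pathway genes, the 2 largest called differences in each direction for Huh-7 against SK-Hep1 are named, apart from a gene that is not reported here.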

Additional observations from a re-analysis of the deposited data

Results flagged for a closer look

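The 5 SK-Hep1 libraries were checked for 11 members, each with 1 FPKM or more in this line, for a library far from the other 4. Chance alone gives about 1 such value in 20 groups. CYP1A1 was at 2.25 FPKM in PSPC1/PTK6 and at 0.313 to 0.536 FPKM in the other 4. It entered the check through PSPC1/PTK6 alone, so the chance rate above does not apply to it. Without that library, SK-Hep1 was called below Mahlavu for CYP1A1 (-1.57, adjusted p = 0.005363). ASL was at 54.7 FPKM in PSPC1-YF/PTK6 and at 30.3 to 35.6 FPKM in the other 4, and its call against Mahlavu held without that library. Reads of other genes that could account for either value were not tested.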

How the results depend on the processing

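No result changed direction past a threshold under any alternative. Between SK-Hep1 and Mahlavu 7 members were called with limma on FPKM (12 with edgeR), and CYP2D6, ARG2, HPD and TDO2 were among those lost. The share of all genes called was 24.9% with no filter, 22.5% with DESeq2 and 24.3% with limma (37.6% with edgeR). No filter and DESeq2 tested more genes, and the cause for limma was not tested. With a pseudocount of 5 the share was 28.7% for Huh-7 against SK-Hep1 and 25.3% against Mahlavu, and with no filter 21.2% and 19.2% (45.8% and 41.7% as reported). A larger pseudocount shrinks low differences by construction. With a pseudocount of 5, 15 members were higher in Huh-7 than in SK-Hep1 and 16 than in Mahlavu (22 and 22 as reported). CYP3A7, UGT2B7, OTC, TAT and FBP1 lost their calls in both comparisons, SULT1A1 and ARG2 against SK-Hep1 alone, and HPD against Mahlavu. With a pseudocount of 0.1, 26 and 25 members were higher. Leaving out 1 library gave 10 to 13 members and 33.3% to 39.7% of genes for SK-Hep1 against Mahlavu, 7 to 23 members and 39.5% to 46.3% for Huh-7 against SK-Hep1, and 8 to 23 members and 35.4% to 42.6% for Huh-7 against Mahlavu. The low counts came from leaving out Huh-7 control (7 and 8 members) or Huh-7 HGF (8 and 8), since 13 or 14 members then reached 1 FPKM in 2 libraries. With 1 FPKM in 1 library, an alternative chosen after seeing the data, 22 and 23 members were called without Huh-7 control and 20 and 21 without Huh-7 HGF; the lone Huh-7 library was assumed to vary like the other lines. Within lines, a pseudocount of 0.1 gave 1 member past 2-fold in PSPC1, 1 in PSPC1/PTK6, 3 in PSPC1-YF, 2 in PSPC1-YF/PTK6 and 2 in PSPC1-CT131, and a pseudocount of 5 gave 0 in PSPC1-YF. FPKM as deposited, and FPKM scaled to the same sum, gave 1 each in PSPC1/PTK6, PSPC1-YF/PTK6 and PSPC1-CT131; the cause was not tested. With edgeR on reads recovered from FPKM, 25 members were higher and 1 lower (FAH) in Huh-7 than in SK-Hep1, and 23 higher and 2 lower than in Mahlavu, where 32.3% of 17003 and 26.4% of 17037 genes were called higher and 25.9% and 25.6% lower. That test added UGT1A1, HPD, TDO2, SLCO1B3 and FAH against SK-Hep1 and CYP2D6, ASS1 and SLCO1B3 against Mahlavu, and lost PCK2 against Mahlavu. No paired analysis was possible because each condition has 1 library and no replicate numbers are shared. Depth limits the low members: 3 reads over a line is the floor used for folds, and 9 members without reads outside Huh-7 have none.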
